A study of Mus musculus with 4 samples.

Results

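The genes described here encode the machinery that moves membrane between compartments of the cell: vesicle coats, the small GTPases that recruit them, and the SNARE proteins that fuse vesicles with their targets. They were found on an array of mouse testis RNA by gene symbol. The symbols were those of the COPI subunits (Arcn1 and Copa to Copz2) and of the subunits of the adaptor complexes AP1 to AP4. Every gene named Sec, Vps, Rab, Arf, Arl, Vamp, Stx or Snap with a number was taken too. The rule found 135 genes, read by 181 probe sets, among 8251 genes and 12488 probe sets in all. Each gene is represented by the probe set with the highest mean signal over the 4 arrays, whatever the genotype. Of the 135 genes, 118 had a mean signal of at least 200 and were tested.

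Samples were testes of C57BL/6J males aged 16 weeks, with 2 samples of Tslc1-/- and 2 of Tslc1+/+ testis on 1 array each. Tslc1, now named Cadm1, encodes an adhesion molecule of the immunoglobulin superfamily on germ cells. The deleted part of the gene, and whether each array came from a separate animal, are not given in the sources used here, so p-values measure the spread among these arrays only, and that spread may be technical. So few arrays limit the precision, and a permutation test on them could not reach a two-sided p below 0.333.

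As background, COPII coats carry cargo out of the endoplasmic reticulum, COPI coats return it from the Golgi, and clathrin adaptors sort it at the trans-Golgi network, endosomes and the plasma membrane. Arf GTPases recruit COPI and several adaptors, Rab GTPases give each compartment its identity, and SNAREs on vesicle and target pair up to fuse the membranes. In the testis this traffic builds the acrosome, which grows in round spermatids by fusion of vesicles from the Golgi and is later released by a SNARE-driven exocytosis. Most of the machinery is used by every cell type of the organ.

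The targeted gene was low on the arrays labelled Tslc1-/-. The brightest Cadm1 probe set read 775.9 and 604.5 in Tslc1-/- testis, against 3449.5 and 4027.9 in Tslc1+/+ testis (limma, Benjamini-Hochberg adjusted p = 0.000183). The IDs of all 3 Cadm1 probe sets end in a letter code. Any such letter is here called a cross-hybridisation suffix, since it can mark probes that may also bind related transcripts. The different letters were not told apart. Without limma's intensity trend the adjusted p of Cadm1 was 0.275. Over the whole array 86 of 7975 tested probe sets passed an adjusted p of 0.05, or 1.08%. Median signals per array were 377.7 and 365.15 in Tslc1-/- testis and 361.5 and 378 in Tslc1+/+ testis. The tissue was recognisable as testis, since all 12 elongating spermatid markers and all 8 measured round spermatid markers passed the signal filter. Both lists were lower in Tslc1-/- testis: 6 of the 12 and 5 of the 8 fell, and none rose. Summed signals of the elongating spermatid markers were 449384.2 and 421501.8 in Tslc1-/- testis, against 611934.1 and 619154.2 in Tslc1+/+ testis. For the round spermatid markers the sums were 138475.5 and 140821.8 in Tslc1-/- testis, against 206400 and 215698.7 in Tslc1+/+ testis. The part these cells play in the results below was not tested.

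Transcripts of 3 trafficking genes fell in Tslc1-/- testis and none rose: Arcn1, the delta subunit of the COPI coat, Sec23a, of the inner COPII coat, and Vps35, the core subunit of retromer, the endosomal sorting complex. These were 3 of 118 tested genes, or 2.54%, where 0.968% of all 5992 tested genes on the array were called lower and 0.267% were called higher. A change is the difference of mean log2(signal + 50), Tslc1-/- minus Tslc1+/+, with its standard error (SE), and the 50 shrinks the changes of dim probe sets. In bulk tissue, fewer cells of a type and less RNA per cell cannot be told apart. The signal filter works on the mean over 4 arrays, and 5 tested genes had 1 genotype's mean below 200. These were Arcn1, Rab20, Rab23, Rab5b and Snap23. Arcn1 passed the filter through its Tslc1+/+ arrays, so its place among the 3 calls is no independent evidence of a difference. The Sec23a probe set used was the brighter of 2 only through its Tslc1+/+ arrays, so the same limit holds for Sec23a. The other 115 genes did not pass. The median change of the 118 genes was 0.015 on the log2 scale, beside 0.016 for all tested genes, with 57 changes below 0 and 61 above. Their median size of change was 0.18, beside 0.21 for all tested genes and a median standard error of 0.21 for the trafficking genes.

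**Figure D1:**
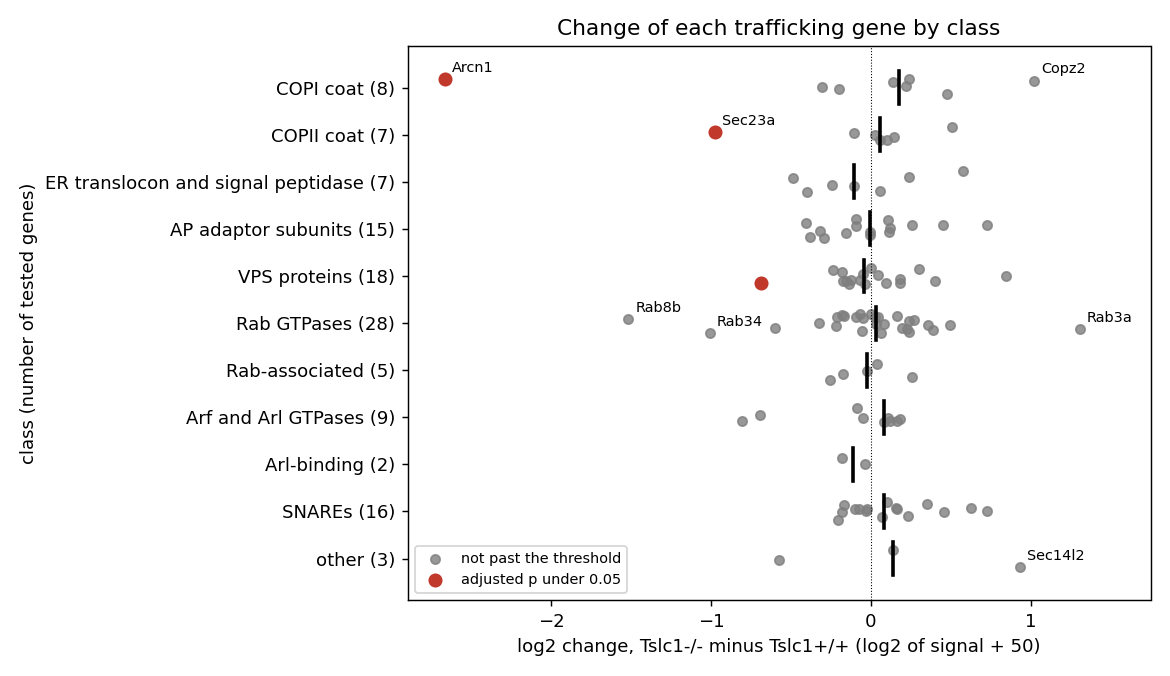
The log2 change of each of the 118 tested genes (horizontal axis, Tslc1-/- minus Tslc1+/+) is drawn by class, with a vertical bar at the class median and red points for an adjusted p under 0.05. All class medians lie between -0.11 and 0.18, and the 3 red points are Arcn1 at -2.67, Sec23a at -0.98 and Vps35 at -0.69.

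The COPI coat is built from several subunits that assemble as one complex, and 8 of its genes were measured. The called Arcn1 probe set read 109.4 and 247.1 on the Tslc1-/- arrays, against 1336.5 and 1325.9 on the Tslc1+/+ arrays. Both Tslc1-/- values were thus far below both Tslc1+/+ values, a log2 change of -2.67 (SE 0.36, adjusted p = 0.00495 by limma). The Tslc1-/- mean of 178 was at the level treated here as too dim to test, so the size of the fall is uncertain. Arcn1 lies on chromosome 9, as does Cadm1. All 3 probe sets of Arcn1 have the cross-hybridisation suffix. The second Arcn1 probe set read 219.6 and 192.7 in Tslc1-/- testis and 103.8 and 86.8 in Tslc1+/+ testis, and the third 99 and 37.9 in Tslc1-/- testis and 77.8 and 197.1 in Tslc1+/+ testis. Both lay below the signal filter and were not tested. Their log2 changes were 0.82 and -0.63, so no other probe set gives a usable check of the called one.

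None of the other 7 COPI genes passed. Copb1, the beta subunit, read 1239.1 and 1547.7 in Tslc1-/- testis, against 904.7 and 1061.7 in Tslc1+/+ testis, a log2 change of 0.48 (SE 0.21, adjusted p = 0.473 by limma). Copz2, a second form of the zeta subunit, was dim at 411.3 and 649.7 in Tslc1-/- testis and 170.5 and 305.7 in Tslc1+/+ testis. Its genotypes did not overlap, yet its log2 change of 1.02 had an SE of 0.44 (adjusted p = 0.478 by limma). Copa, the alpha subunit, had a change of 0.14, with a 95% interval from -0.16 to 0.43. Copb2, the beta-prime subunit, had a change of -0.20 on its brightest probe set and 0.37 on the other. The class had a median change of 0.18, with 3 changes below 0 and 5 above, and dropping replicate 1 of Tslc1-/- testis gave a median of 0.0093, dropping that of Tslc1+/+ testis one of 0.012.

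Of 8 genes of the COPII coat, 7 were tested and Sec23a fell. The brightest Sec23a probe set read 1603.6 and 2084.5 in Tslc1-/- testis, against 3458.3 and 3845.5 in Tslc1+/+ testis. The genotypes did not overlap, and the log2 change was -0.98 (SE 0.16, adjusted p = 0.0178 by limma), a 1.97-fold decrease. A second tested Sec23a probe set read 2158.1 and 2649.2 in Tslc1-/- testis and 1957.5 and 2518.5 in Tslc1+/+ testis. These values overlapped, with a log2 change of 0.10 and an SE of 0.18 (adjusted p = 0.891 by limma), so the fall was seen on 1 of the 2 probe sets. In Tslc1-/- testis this second probe set had the higher mean, 2404 against 1844, and in Tslc1+/+ testis the lower, 2238 against 3652. The paralog Sec23b had a change of 0.03, with a 95% interval from -0.54 to 0.59.

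Sec16a, which marks the exit sites of the endoplasmic reticulum where COPII assembles, read 5325.3 and 4119.7 in Tslc1-/- testis, against 2759 and 3908.4 in Tslc1+/+ testis. Both Tslc1-/- values were higher, by 0.51 on the log2 scale with an SE of 0.18, but the gene did not pass (limma, adjusted p = 0.345). The outer coat genes Sec13 and Sec31a had changes of 0.06 and 0.10, and the cargo adaptor gene Sec24c one of 0.15. Sec23ip, which binds the Sec23 proteins, had a change of -0.11. The class median was 0.06. Of the 7 genes for the protein-conducting channel and the signal peptidase of the endoplasmic reticulum, none passed. Sec61a1, the channel's pore subunit, read 9173.6 and 7745.9 in Tslc1-/- testis and 10351.4 and 9613.4 in Tslc1+/+ testis, a change of -0.24 (SE 0.11, adjusted p = 0.517 by limma). Sec61b, the beta subunit, read 956.5 and 1050 in Tslc1-/- testis and 1344.2 and 1513.7 in Tslc1+/+ testis, a change of -0.49 (SE 0.19, adjusted p = 0.407 by limma). Sec11a, a catalytic subunit of the signal peptidase, had a change of 0.06, and the channel partner Sec62 one of 0.58 on its brightest probe set and -0.17 on the second. The median of these 7 genes was -0.11.

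Vps genes were first named for vacuolar protein sorting in yeast, and they encode several complexes of the endosome and the Golgi. Of 20 such genes 18 were tested, 1 fell and 17 did not pass. Vps35 read 3507.8 and 4155.8 in Tslc1-/- testis, against 5893.7 and 6483.3 in Tslc1+/+ testis. The genotypes did not overlap, with a log2 change of -0.69, an SE of 0.13 (adjusted p = 0.0323 by limma) and a 1.61-fold decrease. A second Vps35 probe set was dim, at 156.7 and 101.2 in Tslc1-/- testis and 222.5 and 18.7 in Tslc1+/+ testis, and was not tested. The partners of Vps35 in retromer had smaller changes with intervals that include 0. Vps26a had a change of -0.16 (95% interval from -0.58 to 0.26), Vps29 one of -0.12 (-0.53 to 0.28) and Vps26b one of -0.24 (-1.36 to 0.89).

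ESCRT genes sort membrane proteins into the interior of endosomes. Vps37c read 3679.2 and 2683.4 in Tslc1-/- testis, against 2319.3 and 2420.2 in Tslc1+/+ testis, a change of 0.40 (SE 0.17, adjusted p = 0.45 by limma). Vps28, a subunit of the same ESCRT-I complex, had a change of 0.18, and the ATPase gene Vps4a, which takes ESCRT filaments apart, one of 0.09 with a 95% interval from -0.15 to 0.33. The GARP complex tethers vesicles from endosomes at the Golgi. Its genes Vps52, Vps53 and Vps54 had changes of 0.30, -0.07 and -0.18. A mutation of Vps54 in the wobbler mouse is known to block acrosome formation. Vps51, the last GARP gene, read 653.1 and 848 in Tslc1-/- testis and 154.7 and 909 in Tslc1+/+ testis, so its change of 0.84 rested on 1 low Tslc1+/+ array and its genotypes overlapped. Vps72 met the naming rule but encodes a subunit of chromatin-remodelling complexes. Its change was -0.14.

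**Figure D2:**
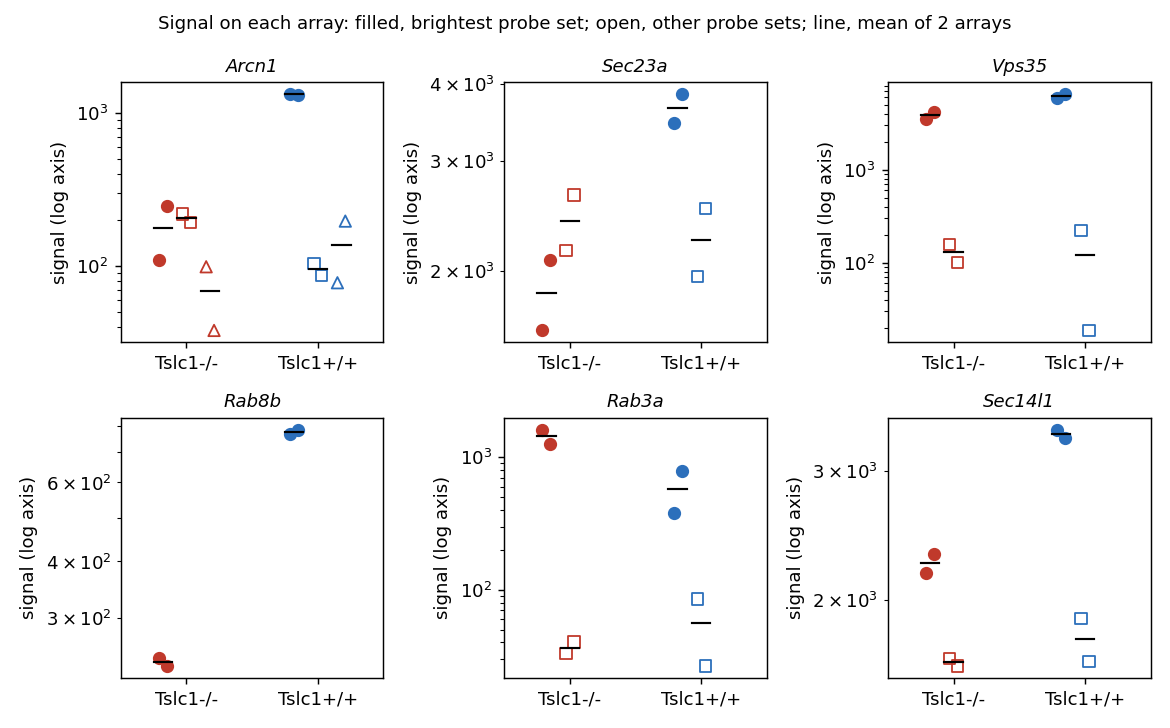
Signals of 6 genes are shown on each array (vertical axis, log scale), Tslc1-/- in red and Tslc1+/+ in blue, with filled circles for the brightest probe set, open symbols for the others and a line at the mean of 2 arrays. The filled points of Arcn1, Sec23a, Vps35, Rab8b and Sec14l1 are lower in Tslc1-/- testis and those of Rab3a higher, while the open symbols of Sec23a overlap between the genotypes.

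Each of the 3 calls depended on a variance that follows signal intensity: with limma's spread estimate set without that trend, Arcn1, Sec23a and Vps35 had adjusted p of 0.348, 0.469 and 0.542. Leaving out 1 array leaves its genotype with a single array, which is then assumed to vary like the other genotype. In these fits the Arcn1 call was lost when either array of Tslc1+/+ testis was dropped (adjusted p = 0.107 and 0.105 by limma), at changes of -2.66 and -2.67. Sec23a passed only without Tslc1-/- replicate 2 (0.0463, and 0.102 to 0.159 otherwise), and Vps35 never passed (0.0838 to 0.227). Vps35 also did not pass when all probe sets were tested (limma, adjusted p = 0.066).

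Rab GTPases were the most numerous class, with 33 genes, of which 28 were tested and none passed. Of the 28, 3 had an unadjusted p under 0.05 in limma, or 10.7%, beside 10.5% of all tested genes. The median change of the class was 0.029. The smallest adjusted p was that of Rab8b, a GTPase of transport to the plasma membrane and to cilia. Rab8b read 244 and 234.1 in Tslc1-/- testis, against 768.4 and 787.3 in Tslc1+/+ testis. The replicates lay close together and the genotypes far apart, a log2 change of -1.52 (SE 0.33, adjusted p = 0.0692 by limma). When suffixed probe sets were left out of the test it passed (limma, adjusted p = 0.0492), but the adjusted p was 0.206 with no signal filter, 0.278 with no intensity trend and 0.194 to 0.315 with 1 array left out. The paralog Rab8a, read by a separate probe set, had a change of -0.18 with a 95% interval from -0.51 to 0.15.

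Rab3a, a GTPase of regulated exocytosis that is known to act in the acrosome reaction of sperm, read 1624.9 and 1257.7 in Tslc1-/- testis, against 378.8 and 785.6 in Tslc1+/+ testis. Both Tslc1-/- values were higher, while the Tslc1+/+ arrays themselves differed widely. The log2 change was 1.31 (SE 0.31, adjusted p = 0.102 by limma). The size depended on single arrays: it was 0.82 without Tslc1+/+ replicate 1 (adjusted p = 0.316 by limma), 1.13 and 1.48 without each Tslc1-/- array (0.55 and 0.293), and 1.79 without Tslc1+/+ replicate 2 (0.0387). A second Rab3a probe set was dim, at 32.9 and 40.2 in Tslc1-/- testis and 84.9 and 26.6 in Tslc1+/+ testis, and was not tested. Rab34, a GTPase of the Golgi and of cilia, read 401.2 and 181.7 in Tslc1-/- testis and 561.9 and 641.6 in Tslc1+/+ testis, a change of -1.01 (SE 0.41, adjusted p = 0.427 by limma).

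Rab11a, a GTPase of the recycling endosome, read 4967.9 and 4795.9 in Tslc1-/- testis and 4498.5 and 5085 in Tslc1+/+ testis, a change of 0.03 with a 95% interval from -0.24 to 0.29. Its second probe set, read at 67.3 and 328.4 in Tslc1-/- testis and 231.4 and 473.8 in Tslc1+/+ testis, had a change of -0.87 with an SE of 0.70. Rab11b, a close paralog, had a change of 0.24 (SE 0.12, adjusted p = 0.588 by limma). For Rab6a, Rab2a and Rab1a, which act at the Golgi and between it and the endoplasmic reticulum, changes were 0.03, 0.06 and 0.19. Of the 6 genes named for an association with a Rab, 5 were tested and none passed. Rab11fip5, an effector of Rab11, had a change of -0.25, and Rab10os, a transcript opposite Rab10, one of 0.26. Rab3ip, an exchange factor for Rab8, had 0.04 on its brightest probe set. Its second, dimmer and with a cross-hybridisation suffix, had -0.57 (SE 0.43), and its genotypes did not overlap. Rab5if had a change of -0.02.

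**Figure D3:**
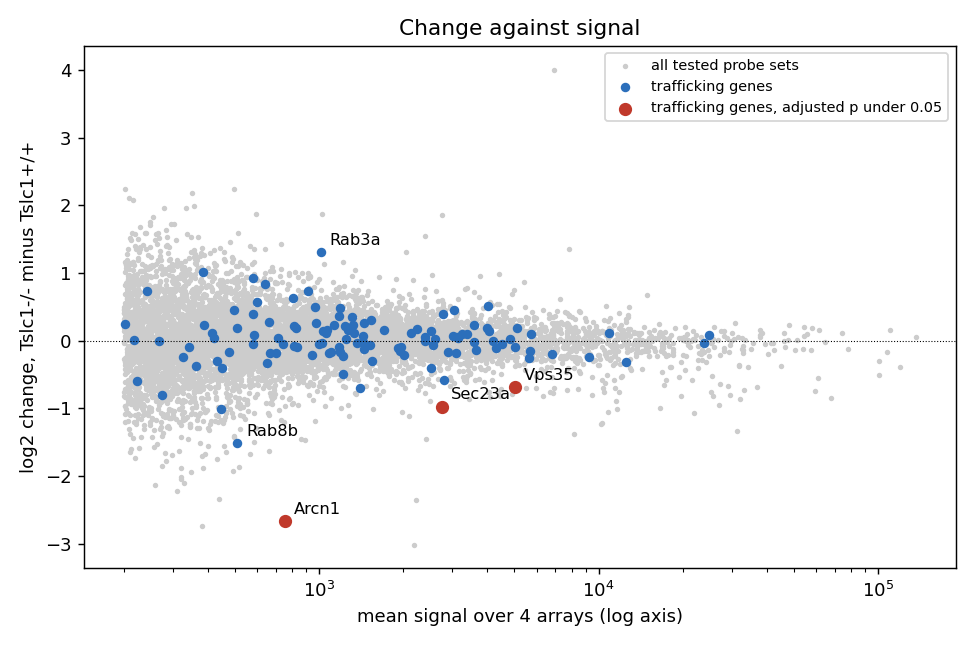
Each tested probe set is drawn by its mean signal over 4 arrays (horizontal axis, log scale) and its log2 change, Tslc1-/- minus Tslc1+/+ (vertical axis), with all 7975 in grey, trafficking genes in blue and the 3 called ones in red. The scatter of changes narrows as the signal grows, and Rab8b at -1.52 and Rab3a at 1.31 stand at the edge of the cloud.

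Promoter sequences were compared for Sec23a, the called gene with an entry, and for Rab8b and Rab3a, the Rab genes with the smallest p, whose log2 changes had opposite signs. The windows are the 250 bases before the annotated start, from RefSeq on build GRCm38.p6, at chr12:59012018-59012267 on the minus strand, chr9:66919706-66919955 on the minus strand and chr8:70754453-70754702 on the plus strand. They are written 5′ to 3′ along the gene, with capitals for 3 short motifs searched on both strands: TGACG, the core of the cAMP response element that CREM binds in spermatids, CCAAT, and the GC box GGGCGG. A match on the opposite strand is shown as its reverse complement, and no motif contains another.
Sec23a: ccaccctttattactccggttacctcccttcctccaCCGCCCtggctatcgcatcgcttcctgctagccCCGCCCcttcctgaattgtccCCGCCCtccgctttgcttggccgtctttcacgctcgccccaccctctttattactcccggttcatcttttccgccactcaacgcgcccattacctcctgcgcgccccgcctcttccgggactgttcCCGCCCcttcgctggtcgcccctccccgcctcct
Rab8b: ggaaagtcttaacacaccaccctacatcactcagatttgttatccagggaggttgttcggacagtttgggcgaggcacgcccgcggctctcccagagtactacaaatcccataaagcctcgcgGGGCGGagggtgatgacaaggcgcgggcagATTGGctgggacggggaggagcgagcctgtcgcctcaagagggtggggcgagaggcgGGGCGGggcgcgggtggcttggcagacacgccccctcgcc
Rab3a: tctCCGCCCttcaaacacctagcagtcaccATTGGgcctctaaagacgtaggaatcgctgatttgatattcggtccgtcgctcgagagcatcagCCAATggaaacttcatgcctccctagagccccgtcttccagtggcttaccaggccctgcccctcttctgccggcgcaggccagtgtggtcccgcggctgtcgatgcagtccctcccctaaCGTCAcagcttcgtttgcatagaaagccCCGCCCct
The Sec23a window held 4 GC boxes, none of the other motifs and 22 CpG dinucleotides. In the Rab8b window there were 2 GC boxes, 1 CCAAT box on the opposite strand and 20 CpG dinucleotides. That of Rab3a held 2 GC boxes, 2 CCAAT boxes, 1 core of the cAMP response element and 16 CpG dinucleotides. A match describes letters and not a bound site.

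Promoters of the trafficking genes as a group were rich in CpG. An entry was found for 115 of the 135 genes, and their windows held a median of 17 CpG dinucleotides and 60.8% G or C. The medians were 14 and 58.8% over 6572 genes measured on the array, and 6 and 52% over all 27025 promoters. A GC box was present in 68.7% of trafficking gene promoters, 54.8% of those of the measured genes and 32.9% of all promoters. The core of the cAMP response element was present in 43.5%, 25.3% and 17.9%, and the CCAAT box in 39.1%, 35.8% and 34.5%, in the same order. These shares are descriptions of single windows per gene, the first entry listed.

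Arf and Arl GTPases start coat assembly and carry lipid-modified proteins to cilia. All 9 genes were tested and none passed (limma, 1 at an unadjusted p under 0.05, or 11.1%, beside 10.5% of all tested genes). Arf1, which recruits COPI and adaptors to the Golgi, read 27459.8 and 23476 in Tslc1-/- testis and 23817.7 and 24187.8 in Tslc1+/+ testis. Its change of 0.08 had a 95% interval from -0.12 to 0.28. Arf4, a GTPase of the early secretory pathway, read 751.7 and 1418.4 in Tslc1-/- testis, against 1882.4 and 1544.4 in Tslc1+/+ testis. These values did not overlap, but the Tslc1-/- arrays lay far apart, and the change of -0.69 had an SE of 0.27 (adjusted p = 0.405 by limma). Its only probe set carries a cross-hybridisation suffix. Arf5 had a change of 0.18 and Arl3, a GTPase of ciliary cargo release, one of -0.05. Arf6, which acts at the plasma membrane, read 403.2 and 50 in Tslc1-/- testis and 330.9 and 312.8 in Tslc1+/+ testis, so its change of -0.80 rested on 1 low array and its genotypes overlapped. Arl2bp, which binds Arl2 and Arl3, read 23376.4 and 23826.4 in Tslc1-/- testis and 24178.6 and 24310.6 in Tslc1+/+ testis, a change of -0.04 with a 95% interval from -0.21 to 0.13. With quantile normalization the change of Arl2bp was 0.14. Arl14ep, named for binding Arl14, had a change of -0.18 on its brightest probe set and 0.30 (SE 0.30) on the second.

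Each of the adaptor complexes AP1 to AP4 is built from large, medium and small subunits. Of 17 subunit genes 15 were tested and none passed (limma, 4 at an unadjusted p under 0.05, or 26.7%, beside 10.5% of all tested genes), with a median change of -0.0079. AP1 acts between the trans-Golgi network and endosomes. Ap1m1, its medium subunit, read 11431.6 and 10890.6 in Tslc1-/- testis, against 13700.8 and 14120.7 in Tslc1+/+ testis, a change of -0.32 (SE 0.09, adjusted p = 0.183 by limma). Ap1b1, its large beta subunit, read 3758.7 and 3286.9 in Tslc1-/- testis and 2573 and 2536.6 in Tslc1+/+ testis, a change of 0.45 (SE 0.14, adjusted p = 0.223 by limma). A second Ap1b1 probe set had the opposite sign, at 312.3 and 404.4 in Tslc1-/- testis and 698.4 and 658.6 in Tslc1+/+ testis, a change of -0.84 with an SE of 0.31. Neither probe set of Ap1b1 overlapped between the genotypes.

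AP2 works in endocytosis at the plasma membrane, and AP3 in transport to lysosome-related organelles. The AP2 genes Ap2a1, Ap2a2, Ap2b1 and Ap2m1 had changes of -0.01, -0.09, -0.16 and -0.09. A second probe set of Ap2m1, dimmer and with a cross-hybridisation suffix, had a change of 0.65 with an SE of 0.42. Of the AP3 genes, Ap3b1 read 11320.5 and 11339.7 in Tslc1-/- testis and 10773.7 and 10242.3 in Tslc1+/+ testis, a change of 0.11 with a 95% interval from -0.10 to 0.31. Ap3s1, a small subunit, had a change of -0.40 (SE 0.15, adjusted p = 0.356 by limma). Ap4s1, the small subunit of AP4, a Golgi adaptor, read 1010.7 and 1292.7 in Tslc1-/- testis, against 663.4 and 678.4 in Tslc1+/+ testis. Both Tslc1-/- values were higher, and the change of 0.73 had an SE of 0.23 (adjusted p = 0.244 by limma).

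SNAREs fall into those of the vesicle and those of the target membrane. Of 21 SNARE genes 16 were tested and none passed. In limma 1 of them had an unadjusted p under 0.05, or 6.25%, beside 10.5% of all tested genes. Vamp5, a vesicle SNARE known from muscle, read 1047.5 and 927.6 in Tslc1-/- testis, against 678.1 and 569.6 in Tslc1+/+ testis, a change of 0.62 (SE 0.24, adjusted p = 0.378 by limma). Sec22b, the SNARE between the endoplasmic reticulum and the Golgi, read 1489.6 and 1451.6 in Tslc1-/- testis and 1080.6 and 1211.5 in Tslc1+/+ testis, a change of 0.35 with an SE of 0.18. Snap23, the widely expressed partner of plasma membrane syntaxins, was dim at 394.1 and 240.3 in Tslc1-/- testis and 173 and 160.3 in Tslc1+/+ testis. Its change of 0.73 had a 95% interval from -0.58 to 2.03. Stx2, first known as epimorphin and present in sperm, had 4132.5 and 2648.6 in Tslc1-/- testis and 3586.1 and 2651.7 in Tslc1+/+ testis, a change of 0.10 with an interval from -0.37 to 0.57. The endosomal Stx12 had a change of 0.07, and Vamp8, of late endosomes, had -0.03 on its brightest probe set and 0.64 on a dimmer one. Vamp2, Vamp3 and Vamp4 had changes of -0.20, 0.17 and 0.16.

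The SNARE class had a median change of 0.08, with 7 changes below 0 and 9 above. Centred on each gene's mean over the 4 arrays, the class median was 0.068 and 0.0057 in Tslc1-/- testis, against -0.11 and -0.061 in Tslc1+/+ testis, so the genotypes did not overlap. Leaving out Tslc1+/+ replicate 1 gave a median change of -0.027, and limiting the class to mean signals of at least 500 gave -0.027 also. The same centred medians for the Rab GTPases were -0.023 and 0.042 in Tslc1-/- testis and -0.073 and 0.067 in Tslc1+/+ testis, and they overlapped. For COPII they were 0.083 and 0.016 in Tslc1-/- testis and -0.043 and 0.015 in Tslc1+/+ testis, and for the 2 Arl-binding genes -0.03 and -0.0805 in Tslc1-/- testis and 0.0998 and 0.011 in Tslc1+/+ testis, both without overlap. For the VPS genes they were 0.0038 and 0.028 in Tslc1-/- testis and 0.076 and -0.021 in Tslc1+/+ testis, with overlap. Over all tested genes they were 0.015 and 0.025 in Tslc1-/- testis and -0.0046 and 0.0089 in Tslc1+/+ testis, also without overlap. A lack of overlap is thus not particular to these classes, and that of COPII rested on 0.0159 against 0.0149.

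**Figure D4:**
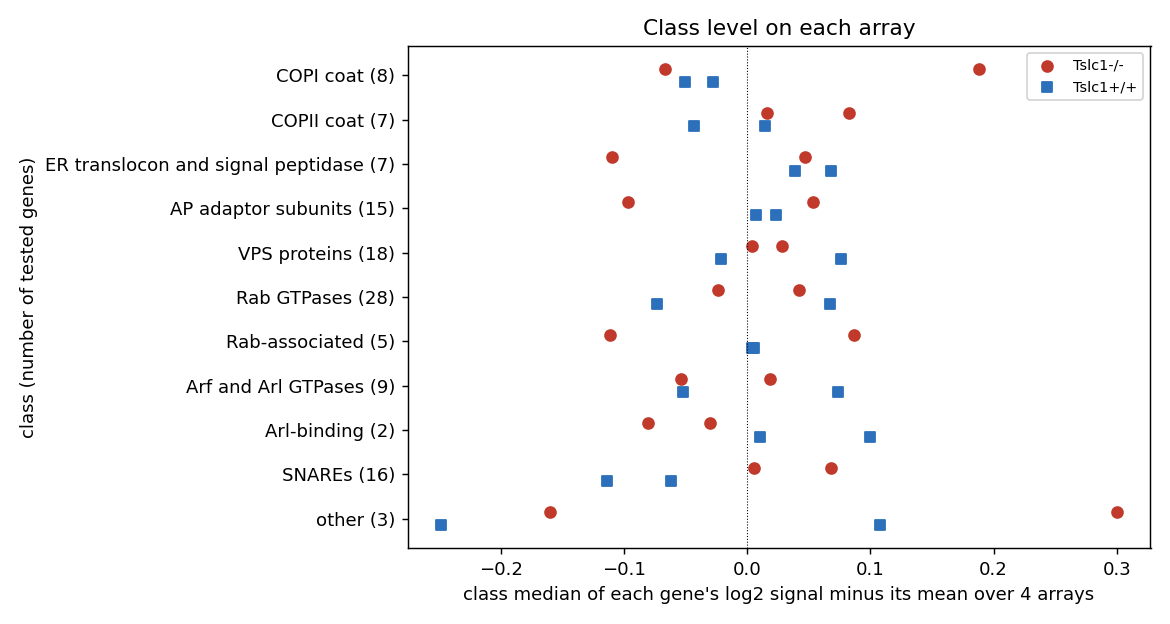
For each class, the median over its genes of the log2 signal minus the gene's own mean over 4 arrays is drawn on each array (horizontal axis), with red circles for Tslc1-/- and blue squares for Tslc1+/+. The arrays of the 2 genotypes interleave except for the SNAREs, COPII and the Arl-binding genes. For the SNAREs the values are 0.068 and 0.0057 in Tslc1-/- testis against -0.11 and -0.061 in Tslc1+/+ testis. Medians over all tested genes, not drawn, do not interleave either.

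The remaining genes met the naming rule without belonging to these classes. Sec14l1, of a family of lipid-binding proteins, read 2179.8 and 2313.9 in Tslc1-/- testis, against 3414.9 and 3323.2 in Tslc1+/+ testis. The genotypes did not overlap, and its change of -0.57 had an SE of 0.14 (adjusted p = 0.0989 by limma). Its second probe set had a change of -0.10 with an SE of 0.17. Sec14l2, a relative that binds tocopherol, read 852.8 and 671.1 in Tslc1-/- testis and 248.7 and 547.8 in Tslc1+/+ testis, a change of 0.93 (SE 0.37, adjusted p = 0.411 by limma). Sec1, a fucosyltransferase gene, had a change of 0.14.

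Counted over all 118 tested genes, 19 had an unadjusted p under 0.05, or 16.1%, beside 10.5% of all tested genes. The share was 37.5% of 8 COPI, 28.6% of 7 COPII, 26.7% of 15 adaptor and 66.7% of 3 unclassed genes. In each other class it was at most 14.3%. The genotypes did not overlap for 20 genes that were lower and 22 that were higher in Tslc1-/- testis, or 35.6% in all. Over all tested genes the share was 40.8%, with 18.8% lower and 21.9% higher. A change of more than 0.5 in size was seen in 15.3% of the trafficking genes and 18.9% of all tested genes.

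Of 26 trafficking genes with 2 or more tested probe sets, 14 had changes of opposite sign and 12 of the same sign. The share with opposite signs was 53.8%, beside 47.5% of 1014 such genes on the array. Some pairs lay within their errors, as for Rab7, at -0.05 (SE 0.29) and 0.09 (SE 0.34). For the 26 genes the median gap between the highest and the lowest change of a gene was 0.46. Gaps were widest for Ap1b1 (1.30) and Sec23a (1.08). Arf3 (0.90) and Rab11a (0.89) followed. Values for the others lay between 0.067 for Rab31 and 0.75 for Sec62.

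**Figure D5:**
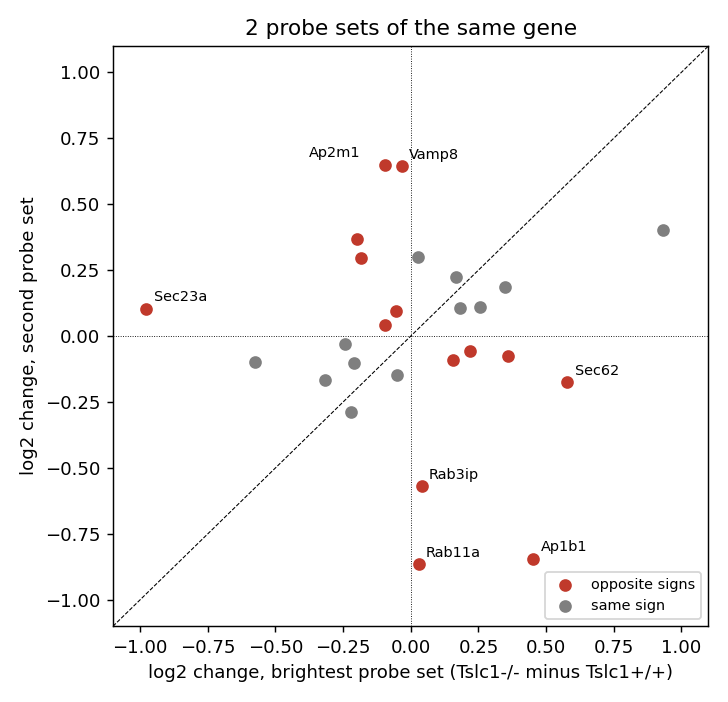
For 26 genes with 2 or more tested probe sets, the log2 change of the brightest (horizontal axis) is drawn against that of the second (vertical axis), Tslc1-/- minus Tslc1+/+, with opposite signs in red and a dashed line of equality. Sec23a stands at -0.98 and 0.10, and Ap1b1 at 0.45 and -0.84.

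The 17 genes below the signal filter included several SNAREs known from regulated secretion in neurons. Snap25 read 39 and 9.8 in Tslc1-/- testis and 10 and 19.1 in Tslc1+/+ testis, and Stx1a read 148.1 and 76.2 in Tslc1-/- testis and 71 and 267.8 in Tslc1+/+ testis. Stx3, Vamp1 and Vamp7 were dim as well. Of 11 measured neuron markers 5 were below the filter (Nefl, Nefm, Snap25, Syp and Syt1) and 6 passed it, with a median change of 0.0049. Snap25 is on both lists. Of 21 SNARE genes 16 passed the filter, as did 5992 of 8251 genes on the array. The summed neuron markers were 8889.3 and 8921.1 in Tslc1-/- testis and 9071.8 and 11065 in Tslc1+/+ testis. The other genes not tested were the GTPases Rab3b, Rab3d, Rab17, Rab33a and Rab35, the transcript Rab26os, the adaptor subunits Ap1s2 and Ap2s1, the COPII gene Sec24b, Vps13c, Vps37a and Snap91, a clathrin adaptor of synapses.

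A further list of trafficking genes outside the naming rule held 125 genes, among them clathrin, dynamins, NSF and its partners, Golgi matrix proteins, tethers and Rab regulators. Of these, 84 had a probe set, 75 were tested and none passed (limma, 13 at an unadjusted p under 0.05, or 17.3%, beside 10.5% of all tested genes), with a median change of 0.03. Epn2, an epsin of clathrin-coated pits, read 2899 and 3136.6 in Tslc1-/- testis, against 1631.6 and 1902.2 in Tslc1+/+ testis. The genotypes did not overlap, and the change of 0.76 had an SE of 0.15 and lay at the threshold (limma, adjusted p = 0.0505). Dnm1, the dynamin that pinches off clathrin-coated vesicles at synapses, read 2849.7 and 2336.8 in Tslc1-/- testis, against 1566.1 and 1600.8 in Tslc1+/+ testis, a change of 0.69 (limma, adjusted p = 0.0989). Gdi2, which recycles Rab GTPases from membranes, read 4328.2 and 4945.4 in Tslc1-/- testis, against 6044.3 and 6555.7 in Tslc1+/+ testis, a change of -0.44 (limma, adjusted p = 0.161).

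Marker lists of other testis cells are given for comparison with these genes. Of 8 tested spermatocyte markers 1 fell, with a list median of 0.11, and Sycp3 was below the filter. Summed spermatocyte signals were 114059.3 and 103865 in Tslc1-/- testis and 106638.6 and 113450.5 in Tslc1+/+ testis. None of 10 Sertoli cell, 8 Leydig cell, 4 macrophage and 2 erythrocyte markers that were tested passed, with medians of 0.02, 0.03, 0.25 and 0.11. Sertoli cell sums were 23995 and 22690.2 in Tslc1-/- testis and 22800.6 and 23863.9 in Tslc1+/+ testis, and macrophage sums were 4359.4 and 3232.3 in Tslc1-/- testis and 3609.3 and 2976.8 in Tslc1+/+ testis. Both overlapped between the genotypes, and the macrophage markers Adgre1, Lyz2, Ptprc and Tyrobp were below the filter. Leydig cell sums did not overlap and were lower in Tslc1-/- testis, at 13256.3 and 14890.9, against 15525.2 and 15653.7 in Tslc1+/+ testis. Erythrocyte sums, of 2 genes, did not overlap either and were higher in Tslc1-/- testis, at 2490.7 and 2352.4, against 1863.6 and 2172.6 in Tslc1+/+ testis. The part of these cells in the results was not tested.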

How the data were processed

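Testis RNA of 2 Tslc1-/- and 2 Tslc1+/+ samples was hybridised to 1-colour oligonucleotide arrays. The deposited intensity values are MAS5 signals per probe set, which the authors scaled globally to the same target on each array, per the labels and the design text. Gene names came from GEO's annotation of the platform: 10833 had 1 gene symbol, 396 several and 1193 none, after 66 control probe sets were left out, and 10817 matched RefSeq by Entrez identifier. All 181 probe sets of the trafficking genes matched with the same symbol.

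Signals were tested as log2(signal + 50) with limma 3.58.1 in R 4.3.3 (lmFit, eBayes with an intensity trend), over 7975 probe sets with a mean of at least 200, with Benjamini-Hochberg adjustment and a threshold of 0.05. No further normalization was applied. The test was checked on simulated data. The simulated noise followed the fitted intensity trend, so that check cannot tell whether the trend holds for these arrays. A gene's values are those of its probe set with the highest mean. Named by rule were Cadm1, called genes, in each class the 2 with the smallest p and the 2 with the highest mean signal, genes whose genotypes do not overlap with a change of at least 0.8, genes with tested probe sets of opposite sign and a change of at least 0.5 on one, and the 3 genes of the further list with the smallest p. Other genes were added for their place in a complex or class after their values were seen. The members and lists were chosen with earlier results of these data known. Promoters are the first RefSeq entry of each gene on GRCm38.p6. Alternatives were quantile or equal-median scaling, other pseudocounts and filters, no intensity trend, no suffixed probe sets, leaving out each array, a replicate block, and the mean over a gene's probe sets.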

Additional observations from a re-analysis of the deposited data

How the results depend on the processing

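Counts of calls moved most. With no intensity trend 0 probe sets passed on the whole array and 0 trafficking genes (10 at an unadjusted p under 0.05 in limma), against 86 and 3, and Cadm1 kept its change of -2.36 at an adjusted p of 0.275. Leaving out 1 array gave 37 to 43 probe sets and 0 to 2 trafficking genes: Arcn1 without Tslc1-/- replicate 1, Sec23a and Arcn1 without Tslc1-/- replicate 2, none without Tslc1+/+ replicate 1 and Rab3a without Tslc1+/+ replicate 2. No label says that the replicate numbers pair the samples. The replicate differences of the 2 genotypes had a correlation of -0.0012 over the tested probe sets. That value shows no strong shared difference, but it cannot tell whether samples were paired. A replicate block gave 239 probe sets, 6 trafficking genes (Vps35, Sec14l1, Sec23a, Rab3a, Arcn1 and Rab8b) and 3 genes of the further list (Gdi2, Epn2 and Dnm1). That list had 0 calls otherwise, and 1, Epn2, with a pseudocount of 100, a filter of 500 or no suffixed probe sets.

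Class medians of log2 change moved as follows. Quantile scaling gave -0.0297 for Arl-binding genes, and the mean over probe sets gave 0.0089 for them and -0.17 for Rab-associated genes. No filter gave 0.16 for SNAREs and -0.22 for the unclassed genes, which had -0.22 without suffixed probe sets too. A filter of 500 gave -0.027 for SNAREs and -0.024 for the translocon genes. With 1 array left out, medians ranged from -0.015 to 0.10 for Arf and Arl GTPases, 0.0093 to 0.28 for COPI, -0.013 to 0.13 for COPII, -0.12 to -0.0063 for the translocon, -0.066 to 0.065 for Rab GTPases, -0.12 to 0.074 for Rab-associated genes, -0.027 to 0.10 for SNAREs, -0.12 to 0.049 for VPS genes, -0.0795 to 0.064 for adaptor subunits and -0.0898 to 0.37 for the unclassed genes.

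Among named genes, Arl2bp turned to 0.14 with quantile scaling and Sec62 to -0.17 without suffixed probe sets. Leaving out 1 array turned the sign of small changes: Ap2m1 (-0.25 to 0.064), Arf1 (-0.032 to 0.19), Arl3 (-0.20 to 0.0995), Copb2 (-0.62 to 0.22), Rab11a (-0.058 to 0.12), Rab3ip (-0.031 to 0.11), Rab5if (-0.13 to 0.076), Sec1 (-0.0898 to 0.37), Sec11a (-0.0801 to 0.20), Stx12 (-0.051 to 0.19), Stx2 (-0.22 to 0.42), Vamp8 (-0.22 to 0.15) and Vps26a (-0.50 to 0.18). The cause was not tested. The genes whose sign turned with 1 array left out had mean signals from 1028 (Sec1) to 24735 (Arf1). Every tested gene lies above the signal filter by construction, and most of these were named for a high signal in their class. Their signals thus say nothing on why the signs turned.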

Other observations

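Arcn1 lies on chromosome 9, as does Cadm1, with 37 protein-coding genes between them. Among the 50 protein-coding genes on each side of Cadm1, 36 were tested and 2 were called, or 5.56%, against 71 of 5955 other tested genes, or 1.19%. This count was chosen after the values were seen. Arcn1, already called above, is 1 of the 2 and passed the signal filter through its Tslc1+/+ arrays. The share of 5.56% is thus no independent evidence of an excess near Cadm1. The strain background around the deletion is not given in the sources used here, and its part in these values was not tested. The 2 genes were Arcn1 and its neighbour Ift46, a subunit of the transport complex that builds cilia and flagella. Ift46 read 6582.7 and 5930.9 in Tslc1-/- testis, against 3870.5 and 3534.1 in Tslc1+/+ testis, a log2 change of 0.75 (SE 0.12, adjusted p = 0.0147 by limma). Only these 2 of the 36 were called, so their opposite directions describe no other neighbour. The reason for them was not tested.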
